A study of Bos taurus with 15 samples.

Results

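CNOT6L encodes a catalytic subunit of the CCR4-NOT complex, the main machinery that removes poly-A tails from mRNA. It is described here in 15 single bovine oocytes from dominant follicles (DF) as 1 row, ENSBTAG00000049571, of a table of 21218 genes. The row was found through the symbol CNOT6L, which a list published with the study pairs with that Ensembl identifier. That list names only genes called different between these DF oocytes and fully grown oocytes cut from the ovarian cortex, and CNOT6L stands on it as higher in DF oocytes. The second measure is the relation of CNOT6L, from oocyte to oocyte, to the mean level of 25 genes for cytosolic ribosomal proteins (symbols RPL or RPS plus a digit), all of which stand on the same list as higher in DF oocytes.

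A growing oocyte makes and stores mRNA, and transcription then falls silent before the oocyte resumes meiosis. From then on the amount of each maternal mRNA is mainly kept or lowered. The study also cites evidence that transcripts made in the surrounding corona cells pass into the oocyte. Much of the control runs through the length of the poly-A tail, which deadenylases shorten and cytoplasmic poly-A polymerases extend. CNOT6L, with its paralog CNOT6, belongs to the endonuclease-exonuclease-phosphatase family of deadenylases, and in the mouse it is known for its part in clearing maternal mRNA as the oocyte matures. Messages for ribosomal proteins are among the stored transcripts whose tails are known to shorten during maturation, and a library made by capture on oligo-dT sees a message only through its tail.

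All oocytes came from DF of crossbred nulliparous beef heifers whose cycles were synchronised with a GnRH analogue and a progesterone device, followed by prostaglandin and removal of the device. T1 holds 6 oocytes collected 24 h before ovulation, T2 holds 4 oocytes collected 19 to 23 h after oestrus detection, and T3 holds 5 oocytes collected about 2 h before ovulation from heifers that had received another dose of GnRH. Time and that dose cannot be told apart in T3. Each oocyte came from another heifer, was stripped of its cumulus cells and was frozen singly. The T2 titles speak of hours before ovulation, whereas the other labels and the methods count from oestrus. The methods describe the later day of slaughter as both 19 to 23 h after oestrus detection and about 2 h before ovulation. T2 and T3 may thus lie close in stage, and the interval between them is not stated. The methods name the later dose of GnRH beside both times, so they do not settle whether heifers of T2 also received it. Changes written as from T2 to T3 compare the labelled groups. The oocytes came from earlier trials, and which trial gave which oocyte is not stated in the sources used here.

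The total count ranged from 175263 to 4894970 per oocyte, and from 2686 to 11273 genes had a count. The study left out 4 oocytes at its quality control (T1.4 and, of T3, the oocytes T3.1, T3.3 and T3.5), so that 11 remained, namely 5 of T1, 4 of T2 and 2 of T3. Of the 4, T1.4 had 2874041 counts and 7433 genes with a count. Comparisons were made on these 11, and all 15 are shown beside them. The oocyte markers FIGLA, OOSP2 and KPNA7 were counted in 15 of 15 oocytes, and NOBOX, NLRP5 and NLRP13 in 14. Of 15 markers of cumulus and granulosa cells, 2 could be paired with an identifier, namely CD44, counted in 4 of the 11, and STAR, counted in all 11 at 142 to 1042 counts. STAR had a log2 level of 7.47 ± 0.64 at T1, 7.82 ± 0.42 at T2 and 6.51 ± 0.75 at T3, with an r of -0.29 to CNOT6L and -0.60 to the ribosomal protein mean. The part of such cells in any result was not tested.

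CNOT6L was counted in every oocyte. At T1, CNOT6L reached 491 CPM (counts scaled to a library total of 1000000) in T1.1, 341 in T1.6, 322 in T1.3, 213 in T1.2 and 175 in T1.5. The oocyte T1.4, which the study did not keep, had 289.5 CPM. T1.1 stood highest, and the 5 oocytes kept averaged 308 ± 124 CPM (SD, n = 5).

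At T2 the level was 375 CPM in T2.1, 364 in T2.2, 325.5 in T2.3 and 278 in T2.4, with a mean of 336 ± 43.9 CPM (SD, n = 4). All 4 lay inside the range of T1. The counts behind them ran from 402 in T2.1 to 1039 in T2.2, so that counting error was small beside the spread between oocytes.

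At T3 the 2 oocytes kept had 271 CPM (T3.2) and 227 CPM (T3.4), a mean of 249 ± 31.1 CPM (SD, n = 2). The 3 not kept lay on both sides of them. T3.1 had the highest CNOT6L level of the series, 791 CPM from 491 counts, in a library of 620910 counts in which 5326 genes were detected and a single gene, OOSP2, held 116723 counts. T3.3 had 34 counts, or 125 CPM with an exact Poisson 95% interval of 86.6 to 175. T3.5 had 4 counts in a library of 175263, or 22.8 CPM with an interval of 6.22 to 58.4. These intervals cover counting error only, and reads of amplified cDNA without molecular identifiers are not independent molecules. The upper ends of both intervals lay below the levels of T3.2 and T3.4. T3.3 and T3.5 had counts for 6029 and 2686 genes, and the part of library quality in their CNOT6L level was not tested.

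**Figure D1:**
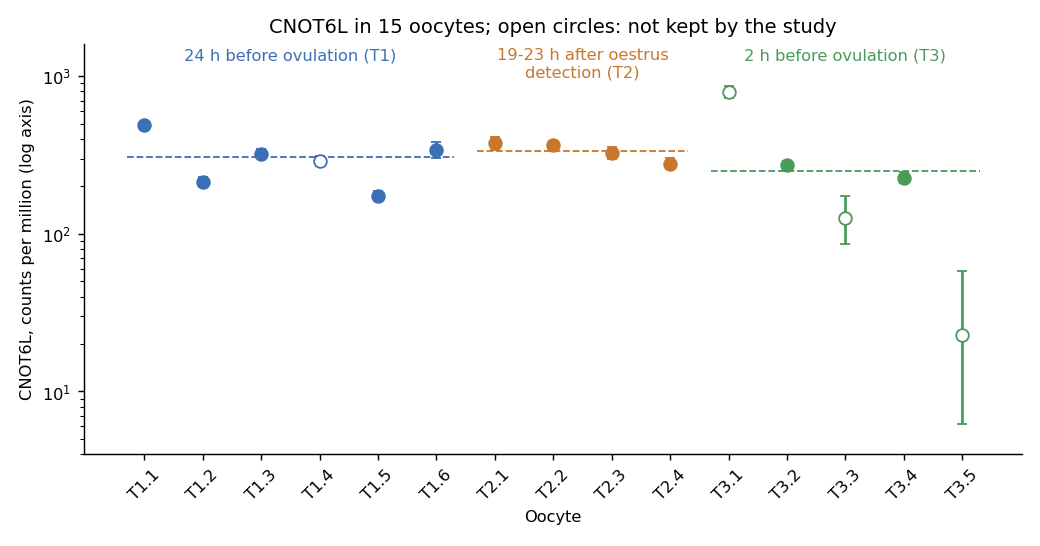
CNOT6L in CPM by library size (log axis) in each of 15 oocytes, with exact Poisson 95% intervals as bars. Filled circles are the 11 oocytes kept by the study, open circles the 4 left out, and dashed lines the mean of the filled circles; the filled circles lie between 175 and 491 CPM, whereas the open circles of T3 run from 22.8 to 791.

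No test found a difference in CNOT6L between time points. After TMM scaling (trimmed mean of M-values, which corrects for the make-up of each library) the level on the log2 CPM scale was 8.18 ± 0.56 at T1 (n = 5), 8.27 ± 0.19 at T2 (n = 4) and 8.18 ± 0.21 at T3 (n = 2). In order, T2 stood first, T1 next and T3 last, and neighbours in that order lay closer together than the spread within either of them.

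In edgeR's quasi-likelihood test the log2 fold change of CNOT6L was 0.01 (SE 0.39, adjusted p = 0.999) from T1 to T2, with a 95% interval of 0.57-fold to 1.77-fold. From T1 to T3 it was -0.09 (SE 0.48, adjusted p = 0.991), with an interval of 0.462-fold to 1.92-fold. From T2 to T3 it was -0.09 (SE 0.50, adjusted p = 0.951), with an interval of 0.449-fold to 1.96-fold. A mean change of CNOT6L of more than 2-fold upwards lies outside all 3 intervals, but they are wide and do not show that the time points are alike.

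Few other genes were called either. At an adjusted p under 0.05 with an absolute log2 fold change over 1.5, edgeR called 0 of 10198 genes (0%) in each pairwise comparison and 1 gene (0.00981%) over the 3 time points together. An unadjusted p under 0.05 was reached by 1242 genes from T1 to T2, 927 from T1 to T3 and 1761 from T2 to T3, and DESeq2 called 469, 349 and 912 genes at the same thresholds. CNOT6L was far from both lists, with unadjusted p of 0.984, 0.861 and 0.854 in edgeR and adjusted p of 0.999, 0.9749 and 0.914 in DESeq2. The median log2 fold change over all genes was -0.20, -0.21 and -0.10 in the same order.

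Exact permutation tests of the log2 level gave the same picture. The difference of means was 0.09 from T1 to T2 (exact p = 0.778, two-sided), -0.0003 from T1 to T3 (exact p = 0.762) and -0.09 from T2 to T3 (exact p = 0.667), and the groups overlapped in all 3 comparisons. With 2 oocytes at T3 the smallest p these tests could give was 0.0952 against T1 and 0.133 against T2. Without TMM the T3 oocytes fell below all 4 of T2, by 0.42 on the log2 scale (exact p = 0.133). After TMM, where CNOT6L overlapped, 18.7% of all genes were lower and 16.3% higher at T3 than at T2 with no overlap. The share with library size alone was not counted.

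With all 15 oocytes the spread of T3 took over. CNOT6L then averaged 7.53 ± 2.00 at T3 (SD, n = 5), against 8.19 ± 0.51 at T1 (n = 6) and 8.23 ± 0.20 at T2 (n = 4). The differences stayed within that spread, at -0.66 from T1 to T3 (exact p = 0.554) and -0.69 from T2 to T3 (exact p = 0.619). At T3, 3 of the 5 oocytes were not kept, so the T3 values of CNOT6L rest on which oocytes are counted more than those of T1 or T2 do.

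Among the 11 oocytes kept, CNOT6L had one of the smaller spreads. Its log2 level had an SD of 0.38 over the 11 oocytes, whereas the median gene tested had an SD of 1.26, and 1.01% of genes had a lower one. Genes at low level vary more by counting alone, so CNOT6L was also placed among the 548 genes whose mean lay within 0.5 of its own on the log2 scale. Their median SD was 0.70, and 4.745% of them varied less than CNOT6L. The dispersion that edgeR fitted for CNOT6L, 0.197, stood beside a median of 0.695 over all genes, and 1.65% of genes had a lower one. Among 636 genes of like level the median dispersion was 0.2585, and 12.3% of them had a lower one. All 25 ribosomal protein genes had a higher SD than CNOT6L, with a median of 1.77. With all 15 oocytes, a choice made after seeing the data, the SD of CNOT6L was 1.16, beside 1.81 for the median of 9058 genes and 1.31 for the median of 484 genes of like level. Of all genes 9.914% then had a lower SD, and of those of like level 42.77%, so that the narrow spread of CNOT6L holds for the oocytes kept. These ranks are descriptions and carry no test.

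**Figure D2:**
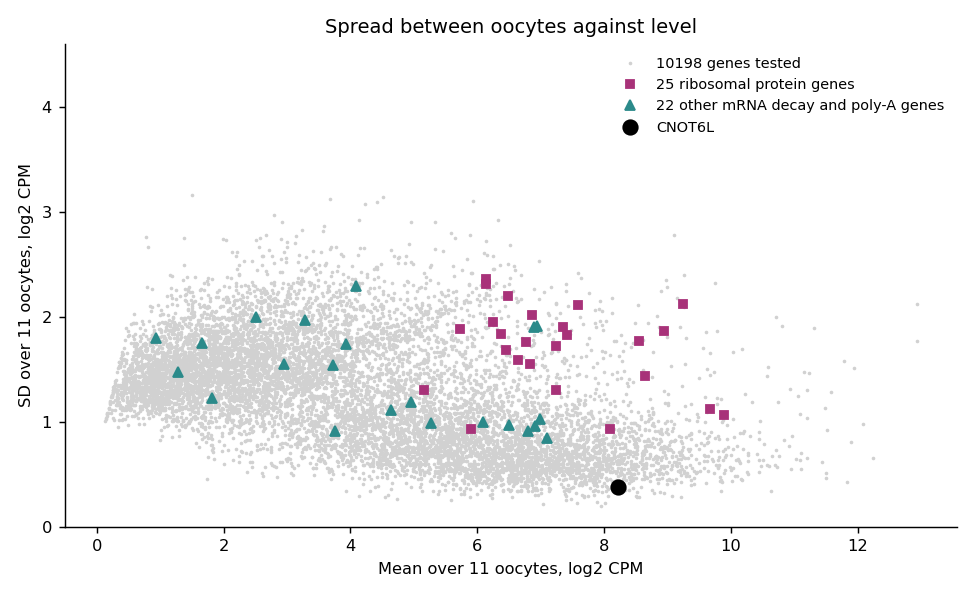
SD over the 11 oocytes against mean level for each of 10198 genes tested, both on the log2 CPM scale after TMM, with CNOT6L as a black circle, 25 ribosomal protein genes as squares and 22 other genes of mRNA decay and poly-A control as triangles. CNOT6L lies at an SD of 0.38 near the lower edge of the cloud, below all squares and all triangles.

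The ribosomal protein messages moved widely in the same oocytes. Their mean log2 level was 7.87 ± 1.44 at T1 (n = 5), 5.72 ± 0.39 at T2 (n = 4) and 8.84 ± 0.62 at T3 (n = 2). Single oocytes ran from 5.21 in T2.1 to 10.01 in T1.2. These 25 genes held between 0.168% and 2.66% of the counts of an oocyte.

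Against that swing, CNOT6L in the 11 oocytes kept stayed within a narrow band. The ribosomal protein mean stood 2.75 above its own average in T1.2 and 2.06 below it in T2.1 (deviation -2.06), while CNOT6L deviated from its own average by 0.06 and 0.22 in those 2 oocytes. The widest deviations of CNOT6L were 0.86 in T1.1 and -0.61 in T1.5, where the ribosomal protein mean deviated by -0.36 and 1.46.

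**Figure D3:**
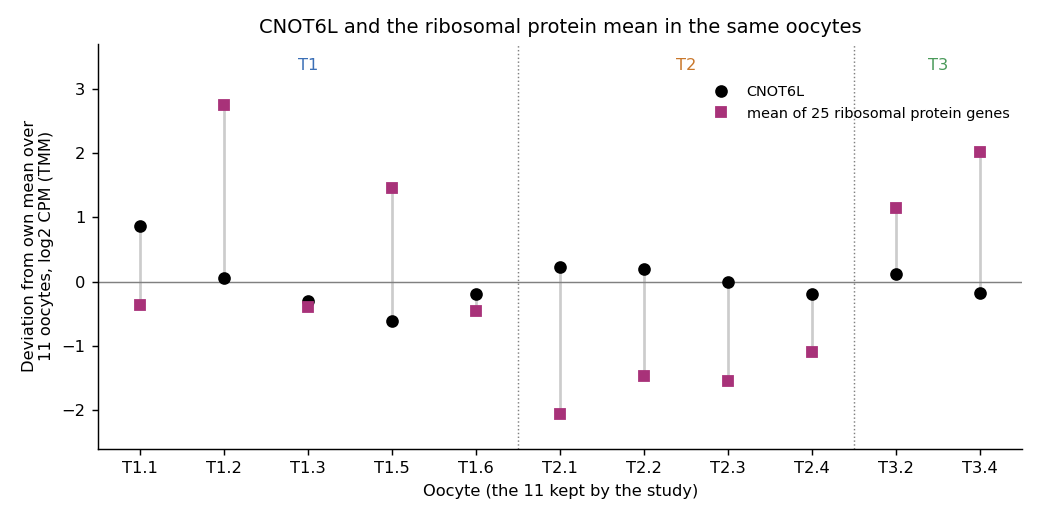
Deviation of CNOT6L (circles) and of the mean of 25 ribosomal protein genes (squares) from their own averages over the 11 oocytes, in log2 CPM after TMM, by oocyte; grey lines join the values of 1 oocyte. All 4 squares of T2 lie below 0 and both of T3 above it, whereas the circles lie between -0.61 and 0.86 at every time point.

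Across the 11 oocytes, each from another animal, CNOT6L and the ribosomal protein mean showed no relation that passed a test after TMM scaling. Pearson's r was -0.27 (permutation p = 0.4365) and Spearman's rho was -0.24 (permutation p = 0.485). This was 1 of 5 relations computed, and after Benjamini-Hochberg adjustment over the 5 the values were 0.546 and 0.607. Without T1.2 and T3.4, the oocytes farthest from the median of the ribosomal protein mean, r was -0.34 (exact permutation p = 0.373, n = 9). Within T1, with all 6 oocytes, it was -0.22 (exact permutation p = 0.654); T2 and T3 hold too few oocytes for a value of their own. Taken as deviations from the mean of each time point, r was -0.29 (permutation p = 0.361, n = 11).

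The relation depended on how the libraries were scaled. With CPM by library size alone, r was -0.74 (permutation p = 0.00859) and rho -0.79 (permutation p = 0.00559) over the same 11 oocytes. Without T1.2 and T3.4, and thus with fewer oocytes, r was -0.63 and no longer passed (exact permutation p = 0.0614, n = 9). As deviations from time point means r was -0.87 (permutation p = 0.00056, n = 11). Upper-quartile and RLE scaling lay between, at -0.47 (permutation p = 0.150) and -0.35 (permutation p = 0.309).

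Both values of a point come from 1 library and share 1 scaling factor. The TMM factors ran from 0.69 to 1.34 and moved with both measures, with r of -0.64 to the ribosomal protein mean and 0.49 to CNOT6L before TMM was applied. Other genes moved too. Under TMM, 39.2% of 10173 other genes had a lower r with the ribosomal protein mean than CNOT6L had, and the median gene had -0.11. With library size alone, 10.02% had a lower r, and the median was -0.23. Whether the negative relation comes from the make-up of the libraries or from the captured messages was not tested.

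**Figure D4:**
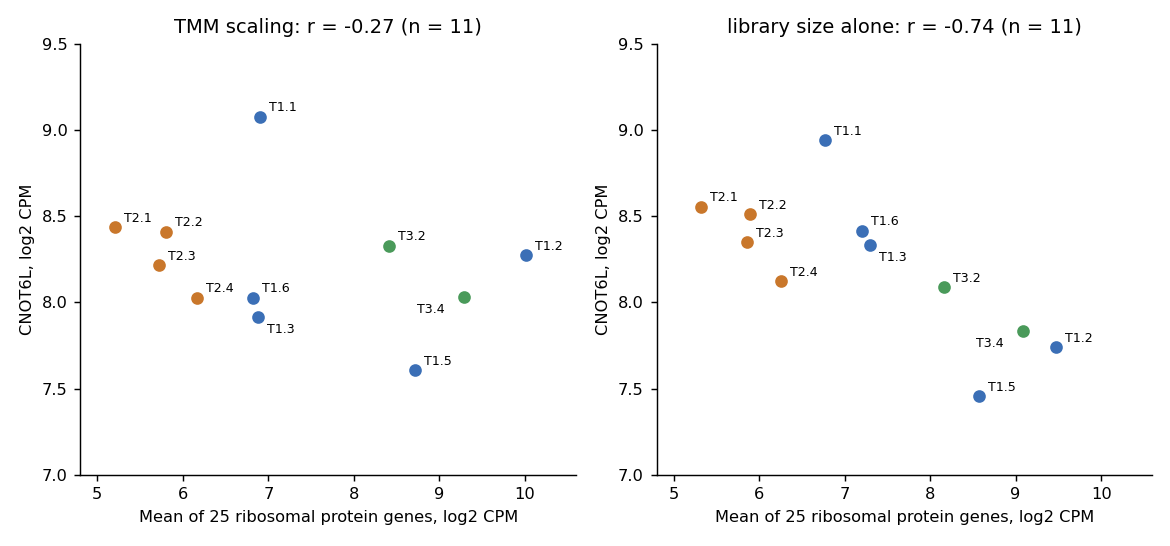
CNOT6L against the mean of 25 ribosomal protein genes in 11 oocytes, both in log2 CPM, after TMM scaling (left) and with library size alone (right); blue points are T1, orange T2 and green T3. The points scatter on the left (r = -0.27) and fall from upper left to lower right on the right (r = -0.74).

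Taken 1 at a time, 22 of the 25 ribosomal protein genes had an r below 0 with CNOT6L after TMM, with a median of -0.26. Over all other genes tested the median r with CNOT6L was also below 0, at -0.08. RPS9, a protein of the small subunit, had the lowest value at -0.63, and RPS3A the highest at 0.30. The 25 genes rise and fall together in these oocytes, so their values are not independent of each other.

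The difference between CNOT6L and the ribosomal protein mean within an oocyte does not depend on the scaling factor of the library. Only its change between oocytes can be read, since gene lengths were not taken into account. At T2 it was 3.23 in T2.1, 2.61 in T2.2, 2.49 in T2.3 and 1.86 in T2.4 on the log2 scale. At T1 it was 2.17 in T1.1, 1.21 in T1.6, 1.04 in T1.3, -1.11 in T1.5 and -1.74 in T1.2. At T3 it was -0.08 in T3.2 and -1.25 in T3.4.

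All 4 oocytes of T2 thus lay high, T1 was divided between 3 oocytes above 1 and 2 below 0, and both of T3 lay below 0. The mean was 2.55 ± 0.56 at T2, 0.31 ± 1.66 at T1 and -0.66 ± 0.83 at T3. The rise of 2.24 from T1 to T2 had an exact p of 0.0317 (two-sided permutation, groups overlapping), which became 0.19 after adjustment over the 6 exact comparisons. From T2 to T3 the difference was -3.21 with no overlap, at the smallest p that 4 against 2 oocytes allow (exact p = 0.133). From T1 to T3 it was -0.98 (exact p = 0.476). How many other genes differ in this way from the ribosomal protein mean was not counted, so these differences are not read as a trait of CNOT6L. After TMM nearly all of these differences lay on the ribosomal protein side, which differed by -2.14 from T1 to T2 where CNOT6L differed by 0.09. From T2 to T3 the ribosomal protein mean differed by 3.12 where CNOT6L differed by -0.09. This division, unlike the difference itself, depends on the scaling. With library size alone CNOT6L differed by 0.21 from T1 to T2, by -0.22 from T1 to T3 and by -0.42 from T2 to T3.

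With all 15 oocytes the T2 mean exceeded that of T1 by 2.45 (exact p = 0.0190) and the T3 mean fell short of T2 by 2.80 (difference -2.80, exact p = 0.0794). T3.1 stood apart there. Its CNOT6L level lay 4.29 above its ribosomal protein mean on the log2 scale, the highest of the 15, whereas T3.5 had the lowest value, -3.17. The value of T1.4 was -1.02, inside the range of the T1 oocytes that were kept.

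CNOT6, the paralog and the other catalytic subunit of this family in the complex (ENSBTAG00000017362), was the only other CCR4-NOT gene of the 12 on the list that could be paired with an identifier. It had 19 to 277 counts in the 11 oocytes. Its log2 level was 5.15 ± 0.90 at T1, 5.87 ± 0.33 at T2 and 4.36 ± 1.75 at T3, and it was lowest in T3.2 (3.13) and T1.2 (3.95). CNOT6 differed by 0.53 from T1 to T2 (SE 0.61, adjusted p = 0.834 in edgeR) and by -1.08 from T2 to T3 (SE 0.84, adjusted p = 0.540), and it varied more than CNOT6L, with an SD of 0.99.

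The relation between the paralogs did not pass over the 11 oocytes, where r was 0.32 (permutation p = 0.327, adjusted 0.545 over the 5 relations) and rho 0.52 (permutation p = 0.109, adjusted 0.272). Without T1.2 and T3.2, the 2 oocytes farthest from the CNOT6 median and its lowest, r was 0.91 (exact permutation p = 0.000256, n = 9) and rho 0.97, a description, since those 2 were left out by their CNOT6 level. The other relations of CNOT6L were to the total count of the library (r = -0.03, permutation p = 0.940) and to the number of genes with a count (r = -0.36, permutation p = 0.289), and neither passed. The relation to the number of genes was -0.66 without the 2 oocytes farthest from its median (exact permutation p = 0.0432, n = 9).

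CNOT6L acts with a wider set of factors that recruit deadenylases, extend or mark tails, hold mRNA in store and degrade it once the tail is gone. Of the genes listed for these roles, 23 including CNOT6L and CNOT6 could be paired with an identifier, and all 23 passed the filter on low counts. They are 2 of 12 CCR4-NOT genes, 2 of 9 other deadenylases, 5 of 30 recruiters, 4 of 20 genes of tail extension and uridylation, 4 of 20 of mRNA storage and poly-A binding and 6 of 36 of decapping and decay. Since symbols came from a list of genes called different in these oocytes, the 23 are no fair sample of the pathway. In edgeR, 0 of the 23 were called in each comparison, where 0% of all genes were, while DESeq2 called 1, 1 and 2 of them, where it called 3.27%, 2.44% and 6.37% of all genes. The likelihood ratio test called LSM7 from T1 to T2 and LSM7 and TOE1 from T2 to T3, beside 3.44%, 1.36% and 6.87% of all genes in the 3 comparisons. Without a filter on low counts edgeR called LSM7 from T1 to T2 and from T2 to T3, beside 1.7%, 0.00698% and 2.58% of all genes.

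From T1 to T2, 1 of the 23 had an unadjusted p under 0.05 upwards (2.77% of all genes did) and 1 downwards (9.41%). DIS3, the catalytic ribonuclease of the exosome, had a log2 fold change of 1.21 (SE 0.51, adjusted p = 0.336). LSM7, a subunit of the ring that binds deadenylated ends ahead of decapping and also of the spliceosomal ring, had -2.75 (SE 0.85, adjusted p = 0.176). None of the 23 was free of overlap between T1 and T2, where 1.94% of all genes were higher and 2.3% lower in that way. The median over the 23 genes was 0.01, beside -0.20 for all genes.

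From T2 to T3, 1 of the 23 had an unadjusted p under 0.05 upwards (9.03% of all genes) and 3 downwards (8.24%), and the groups did not overlap for 3 genes in each direction, as they did not for 16.3% of all genes upwards and 18.7% downwards. LSM7 stood higher at T3 by 3.49 (SE 0.98, adjusted p = 0.087) and was the gene of the 23 that followed the ribosomal protein mean most closely, with an r of 0.92 against -0.27 for CNOT6L. TUT7, a terminal uridylyltransferase that marks mRNA with short tails, stood lower by 1.62 (log2 fold change -1.62, SE 0.64, adjusted p = 0.212). PAIP2B, an inhibitor of poly-A binding protein, and PATL2, a repressor of stored mRNA in oocytes, had values of 1.85 (SE 1.11) and 1.395 (SE 0.92), with no overlap between T2 and T3. For PAIP2B this holds only for the T3 oocytes kept, as T3.1, T3.3 and T3.5 had 0, 1 and 0 counts.

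TOE1, a nuclear deadenylase of small RNAs, and DCPS, the scavenger decapping enzyme, had 0 counts in both T3 oocytes kept. TOE1 averaged 14.5 ± 6.26 CPM at T2 and was counted in all 4 oocytes. This mean was 26.3-fold the 0.550 CPM that a floor of 3 counts over both T3 libraries allows. That ratio covers counting error only and leaves out the spread between oocytes. In edgeR, which takes in that spread, TOE1 was not called from T2 to T3 (adjusted p = 0.114). With 0 counts at T3 no reliable size of the change can be given. DCPS averaged 6.19 ± 2.03 CPM at T2, or 11.2-fold the same floor, and was not called by edgeR either (adjusted p = 0.230). TOE1 was at 0 in all 5 T3 oocytes, but T3.1, which was not kept, had 19 DCPS counts in a library of 620910, so that the DCPS value covers only the oocytes kept. At T1 each of them was also at 0 in some oocytes, TOE1 in T1.2 and DCPS in T1.1 and T1.6.

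From T1 to T3, PAIP2B had a log2 fold change of 2.25 (SE 1.05, adjusted p = 0.542) and in both T3 oocytes kept lay above the T1 oocytes kept, the single gene of the 23 without overlap there (3.8% of all genes were higher and 5.18% lower in that way). TOE1 and DCPS had unadjusted p under 0.05 downwards, as 7.47% of all genes had, and PAIP2B upwards, as 1.62% had. The other genes with a role next to CNOT6L overlapped between T1 and T3. PUM2, a sequence-specific repressor that recruits CCR4-NOT, had -1.04 (SE 0.71). YTHDC2 had -0.93 (SE 1.43) and TOB2, an adaptor between the complex and poly-A binding protein, -0.02 (SE 0.90). PAN3, the regulatory subunit of the PAN2-PAN3 deadenylase, had 0.96 (SE 0.68, adjusted p = 0.725).

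**Figure D5:**
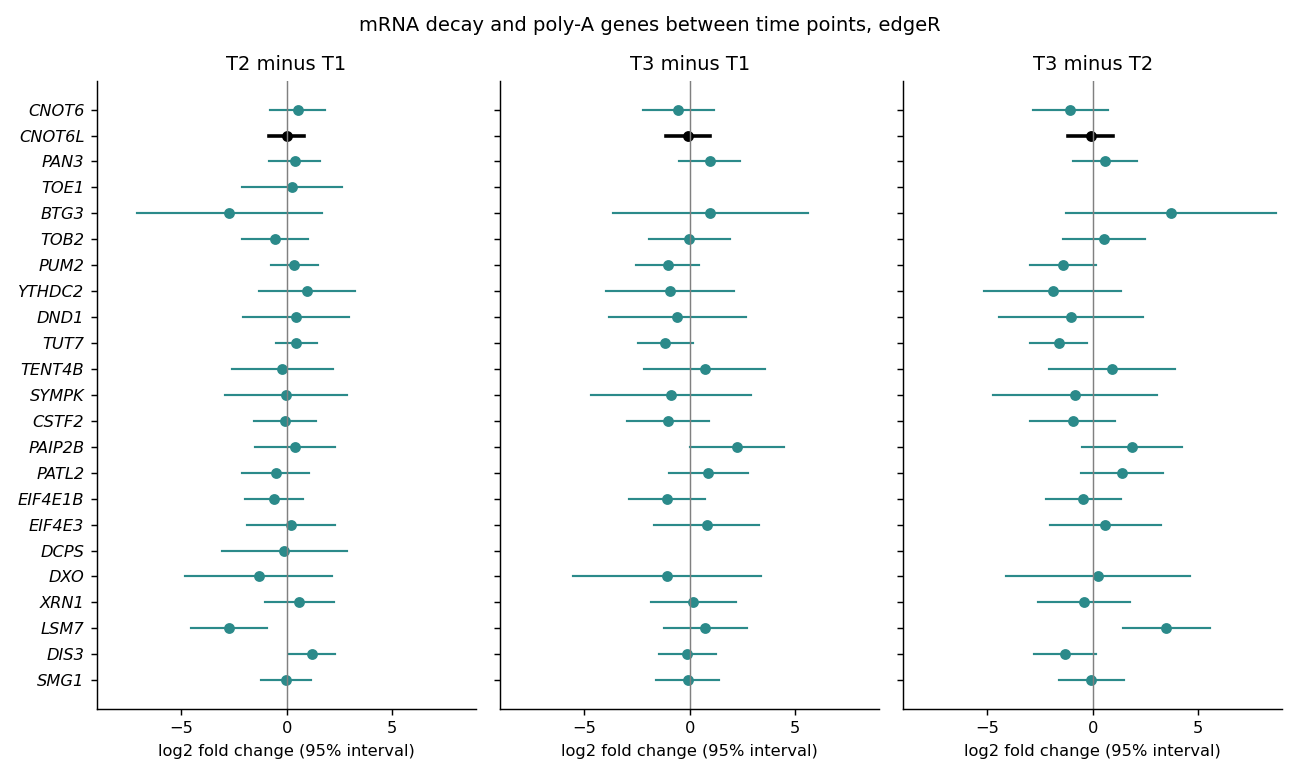
Log2 fold change and 95% interval from edgeR for CNOT6L (black) and 22 other genes of mRNA decay and poly-A control in the 3 comparisons; TOE1 and DCPS have no point where T3 is at 0. The intervals of CNOT6L are centred near 0 (0.01, -0.09 and -0.09), and among the genes drawn LSM7 lies farthest from 0 with an interval that does not reach it.

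Among the 22 other genes of the set, 11 had an r above 0 with CNOT6L over the 11 oocytes. Their median was -0.02, beside -0.08 for all genes tested other than CNOT6L. The highest were XRN1, the cytoplasmic exonuclease that degrades decapped mRNA, with 0.71, and TUT7 with 0.63. The lowest were DXO, a decapping exonuclease, with -0.60 and EIF4E1B, the cap-binding protein of oocytes, with -0.59. All 22 had a higher SD than CNOT6L, but only 1.01% of all genes tested had a lower one, so this is no trait of the set. With 11 points from shared libraries these values are descriptions without a test.

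The named genes with levels most like that of CNOT6L over the 11 oocytes were sought among 1664 tested genes with a symbol. The 5 with the highest r were MPHOSPH9 (0.93), USP44 (0.90), LSM8 (0.88), TMEM267 (0.88) and CASP8AP2 (0.88). USP44 encodes a deubiquitinase of the mitotic checkpoint and LSM8 a subunit of the nuclear LSM ring. Over all 15 oocytes USP44 kept 0.92 and CASP8AP2 0.87, TMEM267 had 0.78 and MPHOSPH9 0.44, and LSM8 had -0.04. All 5 are listed as higher in DF oocytes, as CNOT6L is.

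The 5 with the lowest r were TEX264 (-0.895), RAB3A (-0.88), NELFE (-0.86), GRB2 (-0.85) and NLRP5 (-0.84), the last a component of the subcortical maternal complex of the oocyte. All 5 are listed by the study as lower in DF oocytes. Every gene with a symbol stands on that list as higher or lower, and the list was made with these same DF oocytes. The share of the 1664 genes on each side was not counted. The sides of the 10 genes are thus a description, from which no trait of genes that follow CNOT6L can be read. Over 15 oocytes their values were -0.04, 0.22, 0.13, 0.13 and -0.42, so that of these only NLRP5 stayed clearly below 0. An r above 0.8 with CNOT6L was reached by 56 of 10198 genes (0.549%).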

How the data were processed

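Single oocytes were lysed, poly-A RNA was captured on oligo-dT beads, and Smart-seq2 cDNA was sequenced as single-end reads. The authors trimmed reads with Trim Galore (version 0.6.6 per the submitters' processing notes), aligned them with HISAT2 to ARS-UCD1.2 and counted them per gene in SeqMonk; the deposited values are raw read counts per Ensembl gene, 1 column per oocyte. Annotation release, use of strand and removal of duplicates are not given in the sources used here, and reads shared between CNOT6L and its paralog CNOT6 could be split in ways that cannot be seen. In the RefSeq annotation of ARS-UCD2.0 no gene overlaps CNOT6L, whose nearest protein-coding neighbours there are CXCL13 and MRPL1. Symbols came from a supplementary list of the study (1741 of 1829 identifiers carried one); its fold changes and p-values were not used.

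Counts were tested with edgeR 4.0.16 (R 4.3.3; TMM, filterByExpr, quasi-likelihood F-test, Benjamini-Hochberg over 10198 genes, adjusted p under 0.05 and absolute log2 fold change over 1.5) in 1 fit of the 11 oocytes that the study kept. DESeq2 1.42.0, the likelihood ratio test, other scalings and filters, all 15 oocytes, and each oocyte left out were alternatives. Levels are log2 CPM with a prior count of 2. Single values were compared by exact two-sided permutation and correlations by permutation with 100000 resamples, or all orders below 10 oocytes (Python 3.11.15, scipy 1.17.1). Scripts were checked on simulated counts. The kinase RPS6KA6, whose symbol also meets the rule, was left out of the ribosomal protein mean. Genes named are CNOT6L, those of the decay and poly-A lists and of the ribosomal protein list that carry an identifier, markers, and the 5 with the highest and the 5 with the lowest r with CNOT6L. CNOT6L and all lists were chosen with earlier results of these data known. Relations of CNOT6L other than that to the ribosomal protein mean, and 4 further settings of that relation, were added after seeing the data. P-values measure the spread between oocytes of different heifers.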

Additional observations from a re-analysis of the deposited data

Results flagged for a closer look

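Of 25 combinations of a measure and a group examined for a single oocyte far from the others, 1 was met, and chance marks about 1 in 20. The log2 difference between CNOT6L and its paralog CNOT6 was 4.32 in T1.2, whereas the other 4 oocytes of T1 that the study kept lay between 2.61 and 2.75. The gap made up 0.917 of the range of the group, above Dixon's critical value of 0.71 for 5 values. In T1.2 the CNOT6L level (8.27) was near the T1 mean of 8.18, and CNOT6 was the measure that stood apart, at 33 counts and a log2 level of 3.95. T1.2 also had the highest ribosomal protein mean of the 11 oocytes (10.01). In T1.4, which was not kept, CNOT6 was at 4.61 and the difference was 3.89, and with all 6 T1 oocytes the gap was 0.239 of the range, so that T1.2 no longer stood apart. The part of library quality in this value was not tested.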

How the results depend on the processing

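The edgeR difference of CNOT6L from T1 to T2 (0.01) turned negative with at least 10 counts in every oocyte (-0.0522), with all 15 oocytes (-0.0335) and with the replicate block (-0.066), and ran from -0.12 to 0.31 with 1 oocyte left out. From T1 to T3 (-0.09) it was 0.0809 with 15 oocytes and -0.28 to 0.21 with 1 left out. From T2 to T3 (-0.09) it was 0.114 with 15 oocytes, 0.0111 with the replicate block and -0.38 to -0.03 with 1 left out. No alternative called CNOT6L. The numbers do not pair oocytes (other heifers; deviations of same-numbered oocytes correlated by -0.02 to 0.14, over 0.1 in 1 of 6 pairs). The upper ends of both comparisons with T1 came without T1.1. The exact differences ran from -0.0536 to 0.32 (T1 to T2), from -0.16 to 0.22 (T1 to T3, 0.0055 when thinned to 824854 counts) and from -0.37 to -0.02 (T2 to T3) with 1 oocyte left out; a lone T3 oocyte is then assumed to vary like the other groups in edgeR. CNOT6L minus the ribosomal protein mean, T1 to T2, ran from 1.72 to 2.70 with 1 left out, and lost p under 0.05 without any 1 of T1.2, T1.3, T1.5, T1.6, T2.1, T2.2 or T2.3 (exact p of 0.0571 or 0.0714). The smallest p possible without 1 of these was 0.0286 or 0.0357, so only the most extreme split could pass. From T2 to T3 CNOT6L minus the ribosomal protein mean stayed between -3.80 and -2.63, and from T1 to T3 it ran from -1.57 to -0.39.

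The correlation passed with library size alone (-0.74) and with it as deviations (-0.87), ran from -0.44 to -0.13 with 1 oocyte left out, and was -0.24 with 15 oocytes, -0.39 without T3.3 and T3.5 and -0.39 without T1.2 and T1.4 of the 15 (rho -0.66, permutation p = 0.0160). Of the 23 decay and poly-A genes, DESeq2 called LSM7 (T1 to T2), TOE1 (T1 to T3), and LSM7 and TOE1 (T2 to T3), 1, 1 and 2 genes, and no filter called LSM7 in the first and last, 1 gene each; the likelihood ratio test called LSM7 in both and TOE1 in the last. Counts over all genes moved more. In place of 0, 0 and 0, the likelihood ratio test called 351, 139 and 701 genes (666 over the 3 time points), no filter 244, 1 and 370 (257), and at least 10 counts in every oocyte 145, 0 and 218, and RLE scaling 0, 0 and 17. In place of 0, edgeR called 376 genes from T1 to T2 without T1.1, 15 from T1 to T3 without T1.2, and 316, 403 and 94 from T2 to T3 without T1.1, T1.2 and T3.2; over the 3 time points, in place of 1, it called 143, 71 and 2. The cause of these changes was not tested. A ribosomal protein list from a reference was not run, as the reference does not hold the identifiers. With 2 oocytes, T3 limits every comparison it enters.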

Other observations

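Among the oocyte markers, OOSP2, an oocyte-secreted protein, had an r of 0.77 with CNOT6L over the 11 oocytes, and FIGLA, a transcription factor of the oocyte, had -0.55. The ribosomal protein mean had r of -0.09 and 0.85 with the same 2 genes. FIGLA averaged 9.56 ± 2.33 at T1, 7.29 ± 2.07 at T2 and 10.85 ± 0.86 at T3 on the log2 CPM scale, the order of the ribosomal protein mean. The CNOT6L means of 8.18, 8.27 and 8.18 lay within their spread and gave no clear order. With an adjusted p of 0.261 from T1 to T2 and 0.197 from T2 to T3, FIGLA was not called by edgeR. OOSP2 ranged from 2010 to 53903 counts in the 11 oocytes and was highest in T1.1, the oocyte with the highest CNOT6L level among them. These are values over 11 points from shared libraries, without a test.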
